A study of Mus musculus with 8 samples.

Results

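Skeletal muscle genes were analyzed in the limbal rim and the corneal button of the mouse eye. The set holds 44 of the 23420 named genes in the deposited comparison, matched by gene symbol. It covers the sarcomere, the coupling of excitation to contraction and the energy metabolism of muscle, with fast, slow and extraocular isoforms. Of the 44 genes, 35 were higher in the limbus by more than 2-fold beyond counting error and 0 were higher in the cornea. The genes with the most limbus reads apart from Tpm2 were Myh4, the heavy chain of the fastest limb muscle fibers, with 8 cornea and 3126 limbus reads, and Tnnt3, the fast troponin T, with 5 and 1926 reads. Tpm2, a tropomyosin that is also made outside striated muscle, was not called, with 5906 cornea and 5205 limbus reads. The 5 genes of the set listed as slow had 0 to 27 cornea and 2 to 58 limbus reads each.

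All samples were from wild type C57BL/6J adult mice and no treatment was named. The cornea group was corneal buttons and the limbus group was limbal rims, cut apart under a dissecting microscope, with the conjunctiva removed from the rim, and pooled by tissue over eyes before RNA extraction. The labels number 4 samples per tissue, but the deposited means are those of 2 libraries, 1 per tissue, so there was no spread between replicates and no test between tissues could be made. Reads on named genes summed to 26130041 in the cornea and to 21157953 in the limbus. For each gene the limbus over cornea ratio was taken after division by the size factors of the libraries, with an exact 95% interval (Clopper-Pearson). The interval covers counting error only, and it can be too narrow for that too, since PCR copies of a molecule count as reads. A gene was called when its interval lay past 2-fold. A library with 3 reads or fewer entered the call with 3 reads. Genes that stayed at 3 reads or fewer in both tissues were given no ratio. In the text, a gene with 1 to 3 cornea reads has its ratio and interval from the reads as they are, which can exceed the ratio at 3 reads that decides its call. A gene with 0 cornea reads has its ratio against 3 reads, written as at least that fold, with the lower end of the interval at 3 reads, so these 2 kinds of ratio do not rank genes. By this rule 11.9% of the 15572 genes above that floor were higher in the limbus and 4.44% were higher in the cornea. In pooled tissue, fewer cells of a type and less RNA per cell cannot be told apart.

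The labelled tissues were checked against their markers. All 3 corneal markers (Krt12, Aldh3a1 and Kera) were higher in the cornea and all 3 limbal epithelial markers (Krt14, Krt15 and Krt19) were higher in the limbus. Conjunctival markers were also higher in the limbus for 3 of 4 genes, of which Krt19 is among the limbal markers too, with Krt13 at 35544 cornea and 120736 limbus reads and Krt4 at 2138 and 71498 reads, while Muc5ac of conjunctival goblet cells had 1 read in each library.

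Skeletal muscle fibers contract when thick filaments of myosin slide along thin filaments of actin. Calcium released from the sarcoplasmic reticulum binds troponin on the thin filament, which moves tropomyosin and lets myosin bind. Fast and slow fibers use different genes for myosin, troponin and the calcium pump. The cornea has no skeletal muscle of its own, whereas the rectus and oblique muscles that move the eye insert on the sclera behind the limbus. Extraocular muscle is known for a mix of fiber types that includes myosins seldom found in limbs.

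The myosin and thick filament genes held 117 cornea and 6581 limbus reads over 11 genes, and 9 of them were called higher in the limbus. Myh4 had 8 cornea and 3126 limbus reads, a ratio of 417.6 with an interval of 211.7 to 968.1. The myosin light chains Myl1 and Mylpf, which stabilize the lever arm of the fast myosin head, came next. Myl1 had 6 and 1065 reads, a 189.7-fold ratio (86.9 to 518), and Mylpf had 52 and 1380 reads, a 28.4-fold ratio (21.5 to 38.2). Both were far higher in the limbus, and the cornea held more reads of Mylpf than of any other gene of this group. Of the 75-base windows of Myl1, 8.08% also occur in another gene.

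**Figure D1:**
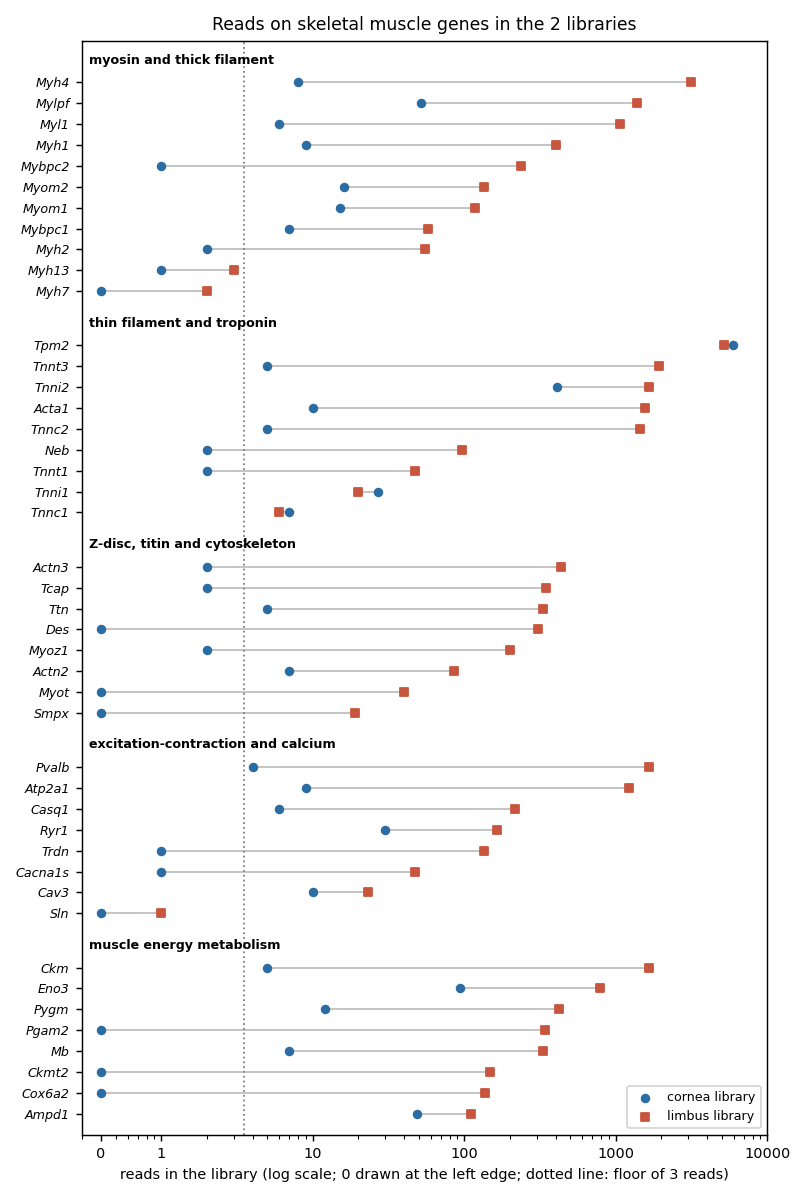
Reads of each of the 44 genes in the cornea library (circles) and the limbus library (squares) on a log scale, grouped by role, with 0 drawn at the left edge and the floor of 3 reads as a dotted line. Most genes lie at 10 reads or fewer in the cornea, while Tpm2, Tnni1 and Tnnc1 have their 2 points next to each other.

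The other fast myosins were lower than Myh4 in the limbus. Myh1, the heavy chain of intermediate fast fibers, had 9 cornea and 403 limbus reads, a 47.9-fold ratio (25 to 105.4). Myh2, of the slowest of the fast fibers, had 2 and 55 reads, a 29.4-fold ratio (7.76 to 248.7). Myh7, the slow and cardiac myosin, had 0 and 2 reads, and Myh13, the myosin named for extraocular muscle, had 1 and 3 reads, so neither was given a call. Myh7b, a slow myosin outside the set, had 3 and 5 reads and was not called.

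Most sarcomeric myosins of fast and developing fibers lie side by side on chromosome 11 (GRCm38), all on the plus strand. In map order the limbus reads were 9 for Myh3 of the embryo (chr11:67078300-67102291), 55 for Myh2 (chr11:67171027-67197517), 403 for Myh1 (chr11:67200052-67224575), 3126 for Myh4 (chr11:67238029-67260446), 3 for Myh8 of the newborn (chr11:67277124-67308634) and 3 for Myh13 (chr11:67321658-67371586). Per kilobase of exons, Myh4 made up 87.4% of all 10 sarcomeric heavy chains measured in the limbus, Myh1 10.7% and Myh2 1.3%. Part of these reads could have come from a neighbor, since 15.8% of the 75-base windows of Myh1, 13.9% of Myh2, 9.68% of Myh4 and 10.6% of Myh7 also occur in another gene.

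The remaining thick filament genes bind myosin along the rod or at the M-line in the middle of the sarcomere. Mybpc2, the fast myosin binding protein C, had 1 cornea and 236 limbus reads, a 252.2-fold ratio (44.8 to 10003), and its slow counterpart Mybpc1 had 7 and 58 reads, an 8.85-fold ratio (4.04 to 23). Of the M-line proteins, Myom2 had 16 and 135 reads, a 9.02-fold ratio (5.35 to 16.2), and Myom1 had 15 and 118 reads, an 8.41-fold ratio (4.9 to 15.5). All 4 genes were higher in the limbus, and the M-line genes had more cornea reads than the heavy chains. Myom1 shares 207 exon bases with Myl12a on the opposite strand.

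The thin filament and troponin genes ranged from far higher in the limbus, through Tnni2 at 4.35-fold, to genes that were not called. Of 9 genes, 6 were called higher in the limbus and 3 were not called. Acta1, the skeletal muscle actin of the thin filament, had 10 cornea and 1564 limbus reads, a 167.1-fold ratio (90.6 to 349.2). Neb, the giant protein that runs along the thin filament, had 2 and 96 reads, a 51.3-fold ratio (13.8 to 429.6). Troponin has 3 subunits, of which C binds calcium, I blocks myosin and T holds the complex on tropomyosin.

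The fast subunits were Tnnc2 (5 cornea and 1448 limbus reads), Tnnt3 (5 and 1926 reads) and Tnni2 (409 and 1666 reads). Tnnc2 was 309.5-fold higher in the limbus (132.3 to 954.6) and Tnnt3 was 411.6-fold higher (176.1 to 1269). Tnni2 was 4.35-fold higher (3.9 to 4.86), so its cornea level was 23% of its limbus level, while the cornea levels of Tnnc2 and Tnnt3 were 0.323% and 0.243% of theirs. Of the fast subunits, troponin I was the one with over 10 reads in both tissues. Its gene lies on chromosome 7 (chr7:142441808-142444410), with Tnnt3 nearby (chr7:142498836-142516009). Tnnc2 shares 592 exon bases with Ube2c on the opposite strand.

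Tpm2, Tnni1 and Tnnc1 were the thin filament genes that were not called. Tpm2 had 5906 cornea and 5205 limbus reads, a ratio of 0.942 with an interval of 0.907 to 0.978, so the limbus was lower by less than 2-fold after the size factors of the table, and it was higher, at 0.12 on the log2 scale, when the libraries were scaled to their total reads. Tnni1, the slow troponin I, had 27 and 20 reads, a ratio of 0.792 (0.421 to 1.46). Tnnc1, the troponin C of slow and cardiac fibers, had 7 and 6 reads, a ratio of 0.916 (0.254 to 3.18). Both intervals include 1. That of Tnni1 ends below a limbus level 2-fold higher but reaches past 2-fold higher in the cornea, and that of Tnnc1 reaches past 2-fold on both sides. Tnnt1, the slow troponin T, stood apart from these slow subunits with 2 and 47 reads, a 25.1-fold ratio (6.58 to 213.4).

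To set genes that were higher in the limbus beside genes that were not, the 250 bases before the RefSeq start of 5 members are given here, 5′ to 3′ on the gene's own strand (RefSeq, GRCm38.p6). Myh4, Acta1 and Tnnc2 were higher in the limbus, and Tnni1 and Tpm2 were not called. Capitals mark matches on either strand to CAGCTG, the E box form read by myogenic factors such as MyoD, to CATTCC (the MCAT element), to TATAAA and to the CArG box bound by serum response factor.
Myh4, chr11:67237562-67237811, plus strand: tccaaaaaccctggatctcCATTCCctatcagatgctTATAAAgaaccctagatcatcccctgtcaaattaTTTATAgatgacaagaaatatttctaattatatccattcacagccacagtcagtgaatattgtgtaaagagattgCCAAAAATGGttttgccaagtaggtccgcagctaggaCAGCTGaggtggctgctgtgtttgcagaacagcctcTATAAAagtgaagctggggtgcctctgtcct
Acta1, chr8:123894776-123895025, minus strand: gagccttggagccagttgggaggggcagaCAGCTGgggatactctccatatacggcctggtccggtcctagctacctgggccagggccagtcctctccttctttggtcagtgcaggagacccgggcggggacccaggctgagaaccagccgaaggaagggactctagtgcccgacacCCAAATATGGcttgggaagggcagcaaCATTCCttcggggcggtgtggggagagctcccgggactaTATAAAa
Tnnc2, chr2:164779735-164779984, minus strand: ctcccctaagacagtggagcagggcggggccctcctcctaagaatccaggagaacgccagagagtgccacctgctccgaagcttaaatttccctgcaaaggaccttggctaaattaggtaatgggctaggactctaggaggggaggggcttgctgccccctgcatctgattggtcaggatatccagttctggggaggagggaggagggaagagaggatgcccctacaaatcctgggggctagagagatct
Tnni1, chr1:135799171-135799420, plus strand: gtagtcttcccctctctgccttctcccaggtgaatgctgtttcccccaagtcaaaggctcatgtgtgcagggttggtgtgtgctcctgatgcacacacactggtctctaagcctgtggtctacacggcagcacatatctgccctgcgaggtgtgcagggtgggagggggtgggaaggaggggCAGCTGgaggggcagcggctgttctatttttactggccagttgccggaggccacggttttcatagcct
Tpm2, chr4:43523555-43523804, minus strand: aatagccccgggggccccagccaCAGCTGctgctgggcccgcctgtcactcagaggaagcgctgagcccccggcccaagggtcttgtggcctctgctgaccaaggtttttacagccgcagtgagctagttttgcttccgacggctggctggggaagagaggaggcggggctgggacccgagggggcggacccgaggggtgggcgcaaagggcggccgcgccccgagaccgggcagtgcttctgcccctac

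Myh4 and Acta1 each held all 4 kinds of match in these windows, Tnnc2 held none of them, and Tnni1 and Tpm2 each held CAGCTG alone. RefSeq windows were found for 32 of the 44 genes, 37 windows in all because some genes have several starts. CAGCTG was present in 19 of the 37 windows (51.4%), against 13% of all 32851 windows of this length. It was in 15 of the 28 windows of genes called higher in the limbus (53.6%) and in 4 of the 9 windows of the other members (44.4%). CATTCC was in 24.3% of the members' windows and 12.6% of all, TATAAA in 13.5% and 12.4%, the CArG box in 8.11% and 1.47%, and the MEF2 core CTANNNNTAG in 5.41% and 3.2%. The general E box CANNTG, which includes CAGCTG, was in 86.5% and 66.2%. These matches are descriptions of the windows, and no binding was measured.

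The Z-disc, titin and cytoskeleton genes were the most one-sided group, with 18 cornea and 1758 limbus reads over 8 genes and 7 called higher in the limbus. The Z-disc anchors the thin filaments at the ends of the sarcomere. Actn3, the alpha-actinin of fast fibers, had 2 cornea and 436 limbus reads, a 233-fold ratio (64.1 to 1930), and Actn2, the form in all striated fibers, had 7 and 86 reads, a 13.1-fold ratio (6.11 to 33.6). Tcap, the cap that joins titin at the Z-disc, had 2 and 344 reads, a 183.8-fold ratio (50.5 to 1524). Ttn, titin itself, the spring of the sarcomere, had 5 and 329 reads, a 70.3-fold ratio (29.8 to 218). The genes of these actin-binding and titin-linked parts of the Z-disc thus each had more limbus than cornea reads.

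Of the linker proteins, Myoz1, which binds calcineurin at the Z-disc of fast fibers, had 2 cornea and 199 limbus reads, a 106.3-fold ratio (29.1 to 884.1). Des, the intermediate filament desmin, had 0 and 305 reads, at least 108.6-fold higher in the limbus against 3 reads in the cornea (interval from 36.8). Myot, a Z-disc protein that bundles actin, had 0 and 40 reads, at least 14.2-fold higher (interval from 4.54). Smpx, a small protein of striated muscle, had 0 and 19 reads, at least 6.77-fold higher, but the interval with the cornea at 3 reads began at 1.99 and so just missed the call. Desmin is also made by smooth muscle, of whose markers 6 of 10 were higher in the limbus.

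Excitation-contraction and calcium genes held 61 cornea and 3464 limbus reads over 8 genes, of which 6 were called higher in the limbus. Pvalb, parvalbumin, the calcium buffer of fast fibers, had 4 cornea and 1652 limbus reads, a 441.3-fold ratio (172 to 1622), the largest point ratio among members with over 3 reads in both libraries. Atp2a1, the calcium pump of fast fibers, had 9 and 1225 reads, a 145.5-fold ratio (76.4 to 318.9). Casq1, calsequestrin, which stores calcium in the reticulum, had 6 and 217 reads, a 38.6-fold ratio (17.5 to 106.5). These genes for uptake, storage and buffering of calcium were all higher in the limbus. Atp2a1 shares 763 exon bases with Rabep2 on the opposite strand.

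The channels of the triad had fewer reads. Ryr1, the calcium release channel, had 30 cornea and 165 limbus reads, a 5.88-fold ratio (3.97 to 8.99). Cacna1s, the voltage sensor that opens it, had 1 and 47 reads, a 50.2-fold ratio (8.59 to 2025), and Trdn, triadin, which ties calsequestrin to the channel, had 1 and 134 reads, a 143.2-fold ratio (25.3 to 5698). Cav3, the caveolin of the muscle membrane, had 10 and 23 reads, a 2.46-fold ratio (1.13 to 5.79), and was not called. Sln, sarcolipin, an inhibitor of the calcium pump, had 0 and 1 reads and was given no ratio. Ryr1 shares 864 exon bases and Cacna1s 1309 exon bases with antisense RNAs.

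**Figure D2:**
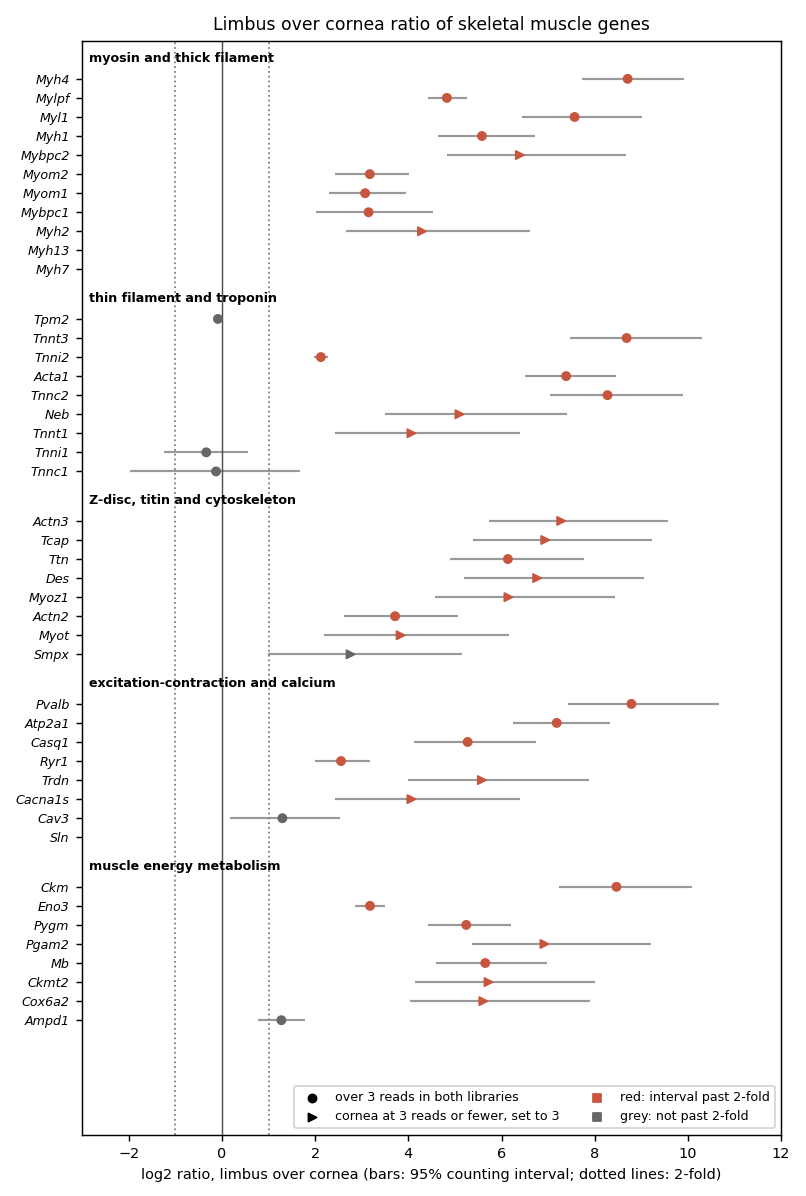
Limbus over cornea ratio of each gene on the log2 scale, with exact 95% counting intervals as bars, triangles where the cornea had 3 reads or fewer and was set to 3, and dotted lines at 2-fold. The 35 genes in red have intervals wholly to the right of the upper 2-fold line, 6 in grey do not, and Myh7, Myh13 and Sln have no point.

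Among 8 energy genes, 7 were called higher in the limbus, with 166 cornea and 3930 limbus reads in all. Ckm, the muscle creatine kinase that regenerates ATP from creatine phosphate, had 5 cornea and 1653 limbus reads, a 353.3-fold ratio (151.1 to 1089). Its mitochondrial partner Ckmt2 had 0 and 148 reads, at least 52.7-fold higher (interval from 17.7). Mb, myoglobin, the oxygen store of muscle, had 7 and 329 reads, a 50.2-fold ratio (24.1 to 125.9). Cox6a2, the muscle subunit of cytochrome c oxidase, had 0 and 137 reads, at least 48.8-fold higher (interval from 16.4). Both mitochondrial genes of this group were at 0 in the cornea.

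The genes of glycogen and sugar breakdown were Pygm, Pgam2 and Eno3. Pygm, muscle glycogen phosphorylase, had 12 cornea and 425 limbus reads, a 37.8-fold ratio (21.4 to 73.8). Pgam2, the muscle phosphoglycerate mutase, had 0 and 340 reads, at least 121.1-fold higher (interval from 41.1). Eno3, the muscle enolase, had 93 and 787 reads, a 9.04-fold ratio (7.29 to 11.3), so its cornea level was 11.1% of its limbus level. Ampd1, the muscle AMP deaminase, had 49 and 111 reads, a 2.42-fold ratio (1.71 to 3.46), and was the energy gene that was not called.

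Taking the 44 genes as a whole, the median log2 ratio was 5.17 with the uncalled low genes at 0, against 0.0 over all 17442 genes with a read. The members took 0.0258% of the cornea reads (95% interval 0.0252 to 0.0264) and 0.131% of the limbus reads (0.129 to 0.133). The ratio of the sums was 4.4 (4.28 to 4.52). Most of the cornea reads were Tpm2. Without it, a choice made after its values were seen, the members held 829 cornea and 22506 limbus reads, a 29-fold ratio of the sums (27.1 to 31.1). Counting error left 24 members with an interval wholly above 10-fold.

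**Figure D3:**
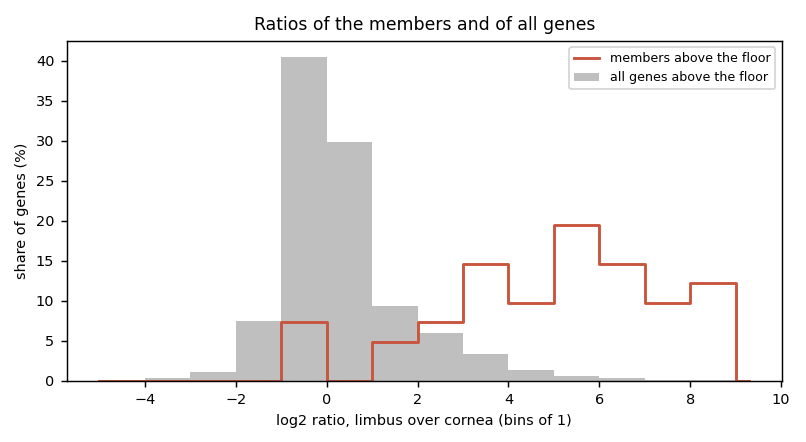
Share of genes in each bin of the limbus over cornea log2 ratio, for all 15572 genes above the floor (grey bars) and for the 41 members above it (red line). The largest bin of all genes, from -1 to 0, holds 40.5% of them, and the largest bin of the members, from 5 to 6, holds 19.5%.

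The members also differed among themselves in the cornea. Of the 44 genes, 8 had 0 cornea reads, 10 had 1 to 3, 16 had 4 to 10 and 10 had more than 10. Among the 20 members with at least 300 limbus reads, a bound set after the values were seen, the cornea level as a share of the limbus level had a median of 0.821%. It was under 1% for 12 of them, from 1 to 5% for 5, and above 5% for Eno3, Tnni2 and Tpm2. Where the cornea had 3 reads or fewer these shares are upper bounds. The bound of 300 is on the limbus reads by which the share is divided. It therefore favors low shares, and the median does not describe all 44 genes.

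Levels were compared between genes per kilobase of exons after the size factors. In the limbus the highest members were Tnnc2 at 1871 normalized reads per kilobase, Tpm2 at 1850, Pvalb at 1640, Mylpf at 1343, Tnnt3 at 1258, Tnni2 at 1150 and Acta1 at 1053. The 3 fast troponin subunit genes thus lay above Acta1, the gene of the thin filament actin, on this scale. Ckm, Myh4 and Myl1 followed at 586.6, 537.1 and 530.8, and Ttn at 2.91 and Neb at 3.73 were low for proteins of the same filaments. Exons were merged over all transcripts of a gene, so a gene with long rarely used exons has a lower value on this scale.

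The fast and slow isoforms were compared within each pair. Of 13 genes listed as fast, 13 were called higher in the limbus, with 514 cornea and 13969 limbus reads in all. Of 5 listed as slow, 2 were called higher, Tnnt1 and Mybpc1, with 43 and 133 reads in all for the list. Both lists hold members only and are not matched, since fast genes such as Actn3, Atp2a1, Myoz1 and Pvalb have no slow partner in the set. Of slow fiber genes outside the set, Atp2a2, with 6241 and 4037 reads, was not called. Myoz2, with 55 and 14 reads, was higher in the cornea, and Myh7b was not called. Per kilobase, the fast form made up 99.7% of troponin C in the limbus (99.3 to 99.9), 99.5% of troponin I (99.2 to 99.7), 98.3% of troponin T (97.7 to 98.7) and 83.6% of the pair of myosin binding proteins C (79.2 to 87.4). The slow myosin binding protein thus kept a larger share than the slow troponins.

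In the cornea the same shares rested on few reads. The fast form made up 97.3% of troponin I (96.1 to 98.2), from 409 and 27 reads. It made up 48.2% of troponin C (18.9 to 77.3), 77.7% of troponin T (36.3 to 97.3) and 15.2% of myosin binding protein C (0.396 to 58.2), each from 12 reads or fewer. The interval of the cornea lay below that of the limbus for all 4 pairs.

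**Figure D4:**
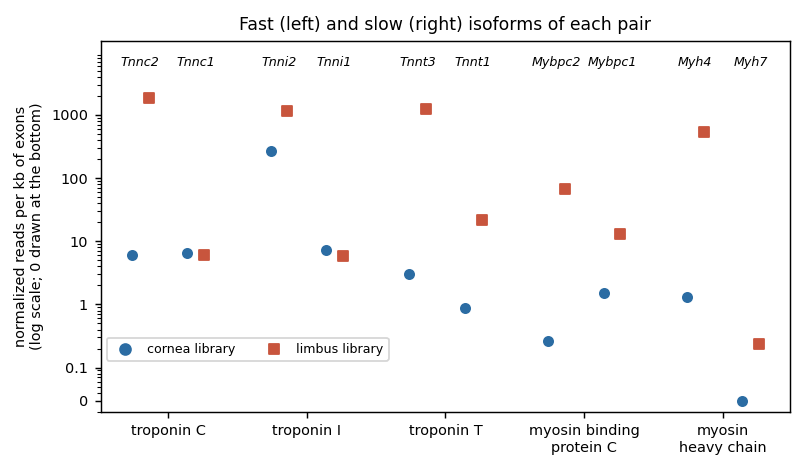
Normalized reads per kilobase of exons, on a log scale, of the fast (left) and slow (right) gene of 4 pairs and of Myh4 and Myh7, in the cornea (circles) and the limbus (squares). In the limbus each fast gene lies above its slow partner, and Tnni2 is the fast gene with a cornea value above 100.

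Other muscle genes were examined in 6 further lists. Of their 95 genes, 31 were called higher in the limbus and 1 higher in the cornea, with a median log2 ratio of 1.18. By list, 12 of 35 other sarcomere genes were higher in the limbus, 8 of 18 excitation-contraction genes, 5 of 16 energy genes, 4 of 7 genes of the dystrophin complex, 1 of 10 myogenic regulators and 1 of 9 genes of the neuromuscular junction. Over all 15572 genes above the floor, 11.9% were higher in the limbus and 4.44% were higher in the cornea. Few genes of the last 2 lists were above the floor, 3 of the regulators and 6 of the neuromuscular junction. With 1 called gene each, these 2 lists do not stand apart from the share over all genes.

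Among the other sarcomere genes, those with the most limbus reads were Fbxo32, a ubiquitin ligase of muscle wasting, with 1181 cornea and 927 limbus reads, Ankrd23 with 157 and 195, and Ldb3 and Mylk2 with 110 each. Ldb3, a Z-disc protein, had 10 cornea reads and was 11.8-fold higher (6.16 to 25.2). Mylk2, the kinase of skeletal myosin light chain, had 0 cornea reads and was at least 39.2-fold higher (interval from 13.1). Myoz2, the slow fiber relative of Myoz1, went the other way with 55 and 14 reads, 3.68-fold higher in the cornea. The embryonic and newborn myosins Myh3 and Myh8 had 9 and 3 limbus reads and were not called.

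The genes with the most limbus reads in the next lists were not called. Atp2a2, the calcium pump of slow muscle and of most other cells, had 6241 cornea and 4037 limbus reads, a ratio of 0.691 (0.664 to 0.719). Tmem38a, a cation channel of the reticulum, had 315 and 387 reads. Scn4a, the sodium channel of muscle, had 345 and 193 reads, a ratio of 0.598 (0.499 to 0.715). Of the energy genes, Aldoa had 7208 and 9551 reads, Slc25a4 had 7278 and 6987, and Pfkm had 1068 and 1084.

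Regulators of the muscle lineage were at few reads. Myf5 and Pax7 were listed at 0 in both libraries, Myod1 had 0 cornea and 2 limbus reads, Myog 1 and 2, Pax3 3 and 0, Cdh15 0 and 4, and Myf6 0 and 6. Mef2c, a factor of muscle, vessels and immune cells, had 8 and 107 reads and was 14.3-fold higher in the limbus (7 to 34). Mymk and Mymx, and Mrln of the excitation-contraction list, were not found under these symbols among the named genes. They still count in the sizes of their lists. Mef2c was the only regulator of these 10 that was called.

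At the neuromuscular junction, Chrnb1, a subunit of the acetylcholine receptor, had 135 cornea and 147 limbus reads, and Musk had 14 and 16. Rapsn, which clusters the receptor, had 2 and 26 reads and was the gene of this list that was called. The dystrophin complex links the fiber to its matrix. Dag1 had 4418 and 4358 reads, Sgcb had 225 and 255, and Dmd, dystrophin itself, had 63 and 179 reads, 3.04-fold higher in the limbus (2.27 to 4.11).

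**Figure D5:**
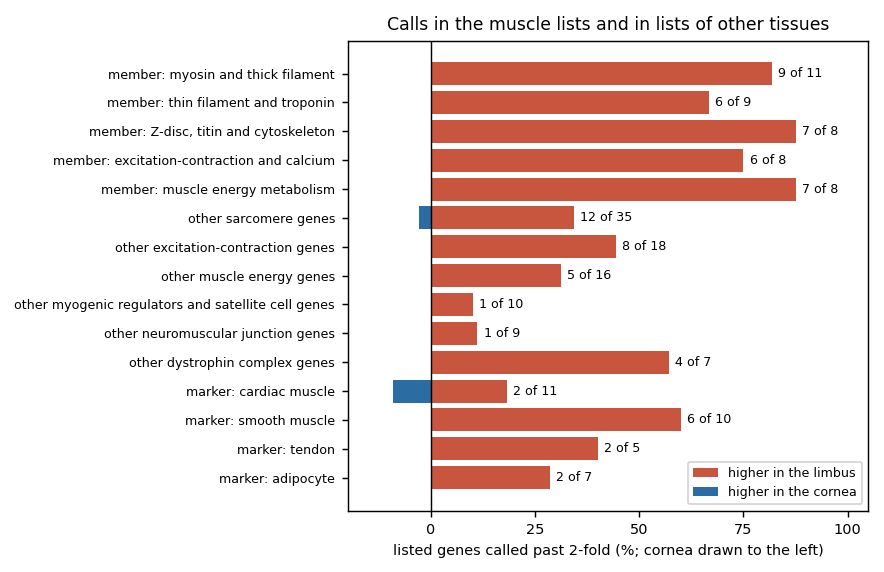
Share of the genes of each list called higher in the limbus (red, to the right) or higher in the cornea (blue, to the left), with the number higher in the limbus of the number listed. The 5 lists of members reach from 6 of 9 to 7 of 8 genes, and the lists of regulators and of the neuromuscular junction have 1 called gene each.

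Smooth and cardiac muscle share some of these genes, and their own markers were measured beside them. By the same call, 11.9% of all genes above the floor were higher in the limbus and 4.44% higher in the cornea. Smooth muscle markers were higher in the limbus for 6 of 10 genes, with 0 to 920 reads per gene in the cornea and 1 to 1306 in the limbus. Acta2 had 40 cornea and 730 limbus reads, a 19.5-fold ratio (14.2 to 27.5), and Tagln had 29 and 498, an 18.4-fold ratio (12.6 to 27.7). Myh11 had 8 and 277 reads, a 37-fold ratio (18.5 to 86.6). Smtn, with 116 and 421 reads, Synpo2, with 16 and 64, and Lmod1, with 6 and 49, were called too. Mylk had 920 and 1306 reads, Actg2 2 and 18 and Cnn1 2 and 15, and none of them was called. Myocd, the regulator that defines smooth muscle, had 0 and 1 and was given no ratio. The part of smooth muscle in the reads of Des and Tpm2 was not tested. Cardiac markers were higher in the limbus for 2 of 11 genes and higher in the cornea for 1, with 0 to 71 reads per gene in the cornea and 0 to 182 in the limbus. The genes called higher in the limbus were Myl7, an atrial myosin light chain, with 66 and 182 reads, and Tnni3, the cardiac troponin I, with 4 and 43 reads, an 11.5-fold ratio (4.18 to 44.1). Nppb, with 71 and 5 reads, was higher in the cornea. Tnnt2 had 56 and 76 reads, Ryr2 23 and 32, Myl4 9 and 13, and Casq2 0 and 12, and none of them was called. Limbus reads were 0 for Myh6, 1 for Nppa and 3 each for Actc1 and Pln. The part of cardiac-type transcripts in the members' reads was not tested.

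Genes with at least 100 limbus reads, which include 30 of the members, were ranked by the lower end of the interval of the ratio. Of these 10945 genes, 8 of the top 20 and 19 of the top 100 were members. The bound is on limbus reads and so leaves out members that were low in the limbus, and the ranking is a description only. The 5 genes outside the set with the highest lower ends were Alox12e, an epidermal lipoxygenase, Mmp3, a matrix protease, Krt17, a keratin, Eln, elastin, and Plvap, a protein of vessel endothelium. Alox12e had 14 cornea and 6676 limbus reads, Mmp3 26 and 8779, and Krt17 72 and 11514. Eln had 3 and 924 reads and Plvap 3 and 914. These 5 genes resembled the members in their ratio across 2 libraries only.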

How the data were processed

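Limbal rims and corneal buttons were pooled by tissue, stranded total RNA libraries were sequenced on a NextSeq, and the reads were trimmed and mapped to GRCm38 (mm10) in CLC Genomics Workbench. Whether reads were counted by strand is not given in the sources used here, so the 18 members that share exon bases with a gene on the opposite strand carry that limit. The authors deposited 1 table with, per gene, the mean normalized signal over the libraries, a log2 fold change of cornea over limbus with its standard error, and p-values. The deposited log2 fold changes and p-values are the authors' own comparison and are neither printed nor compared here.

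Of 40904 rows, 23420 named a gene. Each mean could be split into a whole number of cornea reads and of limbus reads, 109 of the former weighing as much as 102 of the latter. Where several pairs of reads gave the same mean (30 of the 44 members), the pair was taken whose predicted standard error came closest to the deposited one, the deposited log2 fold change serving only as a key. For the members the largest miss was 3.07e-05 and the smallest of any next best pair 0.00362. For 31 of 17442 genes the standard error was not met within 0.001. The method was tested on simulated data. Since reads were derived in this way and no count table was used, the calls rest on the exact interval of each gene alone. No p-value was computed, and there was no correction for the number of genes. The design had assumed 1 library per tissue, so no test across replicates was made.

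Ratios, exact intervals, floors and the 2-fold call are as given with the results. Positions and merged exon lengths are from GENCODE M21, promoter windows from RefSeq, and shared sequence was counted in windows of 75 bases. The members and the lists were chosen with earlier results of these data known. All 44 members are named. Of other muscle lists, the 3 genes with the most limbus reads and those higher in the cornea are named, with the regulators. The values of 2 listed genes are not reported here. Of other tissues, the top 2 are named. Myh3, Myh7b, Myh8 and the smooth muscle, tendon, adipocyte, cardiac, corneal and limbal markers were named outside this rule, after their values were seen. The same holds for markers at or near 0. Python 3.11.15, numpy 2.4.6, scipy 1.17.1, pandas 2.3.3 and matplotlib 3.10.9 were used.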

Additional observations from a re-analysis of the deposited data

How the results depend on the processing

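No paired analysis was possible because the table holds 1 library per tissue, and leaving out a replicate was not possible for the same reason. The number of members higher in the limbus was 35, and it was 33 to 38 under 4-fold and 1-fold calls, other scalings, a floor of 10 reads and a mean of at least 10. Over all genes the share higher in the limbus moved with these settings, from 11.9% to 5.48% at 4-fold and to 34% at 1-fold, where 36.5% were higher in the cornea. The number of members was 7 of 14, of which 11 were above the floor, when only genes whose mean allows 1 pair of reads were kept (17.9% of all such genes), and 16 of 23 when members that share sequence or exon bases with another gene were left out, an alternative added after the data were seen. Both are counts over fewer genes. The number lower in the limbus was 0, and it was 1 (Tpm2) when any interval without 1 was called. Scaling to total reads moved every log2 ratio up by 0.209, and the trimmed mean of M-values by 0.017. Under the former Tpm2 reversed from a log2 ratio of -0.09 to 0.122, and Tnni2 moved beyond its interval. The median log2 ratio ranged from 5.03 to 5.38. The members' share of limbus reads was 0.154% without the 10 genes with the most reads in each library. Without length correction the fast share of limbus reads was 98.8% for troponin I and 97.6% for troponin T, lower than per kilobase because the fast genes have shorter merged exons. Depth limits the calls for Cav3, Smpx and Tnnc1, and for Myh7, Myh13 and Sln it allowed no ratio.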

Other observations

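Lists of other tissues that lie near the limbus were measured with the same call, by which 11.9% of all genes above the floor were higher there. Markers of blood vessel endothelium were higher in the limbus for 3 of 4 genes, led by Pecam1 with 6 cornea and 831 limbus reads and Cdh5 with 3 and 421. Tendon markers were higher for 2 of 5. These were Tnmd, with 175 and 587 reads, a 3.58-fold ratio (3.02 to 4.27), and Comp, with 4 and 147 reads, a 39.3-fold ratio (15 to 146). Thbs4, with 1773 and 1747 reads, Scx, with 21 and 64, and Mkx, with 76 and 62, were not called. Of the adipocyte markers 2 of 7 were higher, Fabp4 with 5 and 94 reads and Plin4 with 1 and 35. Lep had more reads in the cornea, 11 against 2 in the limbus, and was not called. Plin1, Cidec and Retn were listed at 0 in both libraries and Adipoq had 1 read in each.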
